A study of Mus musculus with 16 samples.

Results

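The genes described here carry iron into, hold it in, and release it from erythroblasts, the nucleated precursors of red blood cells. They are the 10 genes Tfrc, Steap3, Slc11a2, Fth1, Ftl1, Ncoa4, Slc40a1, Flvcr1, Aco1 and Ireb2, taken by symbol from the 55416 genes of the read-count table, and all 10 passed the filter on low counts in every comparison. RNA was measured by bulk RNA-seq in erythroblasts sorted from mouse foetal liver at E13.5 (embryonic day) by the surface proteins Ter119 and CD71, at the early stage S1 and at the later stage S3 (basophilic erythroblasts). The 16 libraries came from 4 wild-type (WT), 2 Nprl3 heterozygous (Het) and 2 Nprl3 homozygous (KO, Nprl3-/-) embryos, each giving 1 library per stage. The deleted segment is the Nprl3 promoter, removed in every cell of the embryo and not in erythroid cells alone, with the α-globin enhancers that lie in and near the gene left in place; Nprl3 encodes a subunit of GATOR-1, which restrains mTORC1. WT embryos 0 and 8, both Het embryos and KO embryo 9 were male, and WT embryos 1 and 5 and KO embryo 2 were female.

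An erythroblast takes up iron mainly as transferrin. The transferrin receptor, encoded by Tfrc and seen on the cell surface as CD71, carries it into endosomes, where Steap3 reduces the iron and Slc11a2 (DMT1) passes it out to the cytosol. Most of it goes to the mitochondrion for haem, while ferritin, a shell of heavy (Fth1) and light (Ftl1) chains, stores the rest and Ncoa4 brings ferritin to autophagy so that its iron is freed. Ferroportin, encoded by Slc40a1, exports iron and Flvcr1 exports haem. Aco1 and Ireb2 encode the iron regulatory proteins IRP1 and IRP2. When iron is scarce these bind iron-responsive elements, short hairpins in the untranslated regions (UTRs) of mRNAs. Bound before the coding sequence they hold back translation, and bound after it they protect the mRNA from decay.

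The hairpins that make several of these mRNAs respond to iron are shown first, since they divide the genes by the side of the coding sequence on which regulation acts. Annotated UTRs were searched on the sense strand for the loop CAGTGN closed by 5 base pairs, with at most 1 G-T pair and an unpaired C before the stem. In 5′ UTRs the pattern occurred in 26 of 20937 protein-coding genes (0.124%) and in 3′ UTRs in 67 of 20973 (0.319%). Among the 10 genes it was found in the 5′ UTR of Fth1, Ftl1 and Slc40a1 and, 4 times, in the 3′ UTR of Tfrc. Each stretch below is a target site of 30 bases in GRCm39, read 5′ to 3′ along the mRNA, with the 6 bases of the loop in capitals.
Fth1 5′ UTR (chr19:9960096-9960125, plus strand): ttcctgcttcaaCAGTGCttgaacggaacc
Ftl1 5′ UTR (chr7:45109202-45109231, minus strand): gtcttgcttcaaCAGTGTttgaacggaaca
Slc40a1 5′ UTR (chr1:45964624-45964653, minus strand): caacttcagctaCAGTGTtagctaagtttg
Tfrc 3′ UTR, copy 1 (chr16:32450037-32450066, plus strand): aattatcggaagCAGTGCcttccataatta
Tfrc 3′ UTR, copy 2 (chr16:32450416-32450445, plus strand): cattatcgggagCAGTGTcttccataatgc
Tfrc 3′ UTR, copy 3 (chr16:32450481-32450510, plus strand): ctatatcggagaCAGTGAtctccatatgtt
Tfrc 3′ UTR, copy 4 (chr16:32450528-32450557, plus strand): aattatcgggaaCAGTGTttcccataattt
The match lay in 17 of the 18 annotated coding transcripts of Fth1, in 6 of 7 of Ftl1, in 10 of 12 of Tfrc and in only 5 of 9 of Slc40a1. No match was found in the UTRs of Slc11a2, Steap3, Ncoa4, Flvcr1, Aco1 or Ireb2, which says only that this pattern is not in those UTRs. The pattern is strict and misses elements with a bulged stem, such as the one known in Slc11a2. The counts were made per gene, so the transcripts with and without a hairpin were not told apart.

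Library depth ran from 20666044 to 37609502 read pairs assigned to genes. The globin share of these was 0.0738% to 1.07% at S1 and 10% to 11.9% at S3. Nprl3 itself was at 22.6 to 32.6 CPM (read counts divided by library size, in the usual per-million unit, with TMM scaling over all 16 libraries) in WT libraries at S1, at 12.7 and 12.98 in Het and at 0.319 and 0.676 in KO. At S3 it was at 146 to 204 CPM in WT, 118 and 146 in Het, and 107 and 111 in KO, so that reads over the gene remained in KO libraries at that stage. The paper states that transcripts starting at the enhancers, which do not code for protein, confound the measurement of Nprl3 mRNA. Its promoter-specific PCR detected no Nprl3 mRNA in Nprl3-/- cells. The counts per gene used here do not separate the 2 kinds of transcript. The labels' tissue field names an embryonic stem cell line and their titles name foetal liver. The stem cell markers Pou5f1, Nanog, Zfp42, Esrrb and Sox2 had at most 2 read pairs in any library, while 10 erythroblast markers summed to 1729 to 9416 CPM at S1 and to 152012 to 198796 at S3. The libraries of WT embryos 0 and 8 stood apart at S1: 8 neutrophil genes summed to 202 and 115 CPM there and to 1149 to 1695 in the other 6 S1 libraries. The erythroblast markers summed to 9416 and 8303 CPM in these 2 libraries and to 1729 to 3366 in the other 6. Their globin shares were 1.07% and 1%, against 0.0738% to 0.306%. Markers of hepatoblasts, the surrounding liver cells, summed to 307 and 268 CPM there and to at most 151 in the other 6. Both libraries belong to the WT S1 group from which the WT stage changes were measured.

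The plot of levels by library shows the pattern that organises these genes: 6 of the 10 rose from S1 to S3 in WT embryos (Ncoa4, Ftl1, Fth1, Tfrc, Slc11a2 and Slc40a1), 2 fell (Flvcr1 and Aco1) and 2 did not pass the test (Steap3 and Ireb2). Among the rises, those of the autophagy receptor and of both ferritin chains were the largest in WT. Of all 13514 genes tested, 29.4% were called higher and 35.6% lower at S3 in WT (edgeR quasi-likelihood test, Benjamini-Hochberg adjusted p under 0.05), so that a call by itself is common at this step. The median log2 change under TMM was 1.32 over the 10 genes and -0.13 over all genes. KO embryos gave the same counts, 6 higher and 2 lower, against 22.6% and 30.3% of all genes, and Het embryos gave 7 and 2 against 33.5% and 42.6%. In bulk samples fewer cells of a type and less RNA per cell cannot be told apart.

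**Figure D1:**
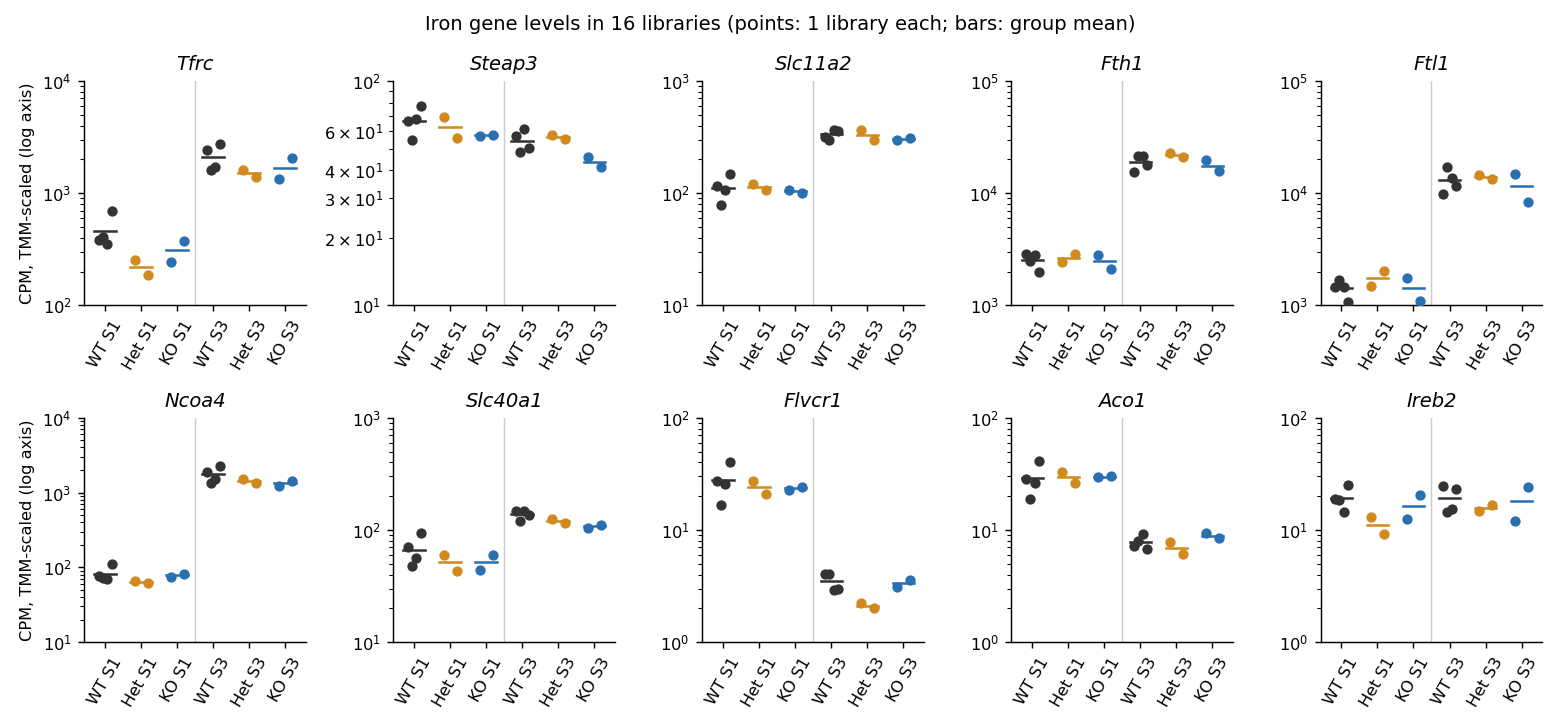
Level of each of the 10 genes in CPM (TMM-scaled, log axis) in the 16 libraries, with 1 point per library, a bar at the group mean, and WT, Het and KO groups at S1 on the left and at S3 on the right of each panel. Tfrc ran from 186 to 695 CPM at S1 and from 1327 to 2731 at S3, whereas the S1 and S3 ranges of Ireb2 overlapped.

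Ferritin was the most abundant product per length at both stages. Per kilobase of merged exons, Ftl1 stood at 1059 ± 193 CPM (SD, n = 4) in WT at S1 and at 9751 ± 2330 at S3, and Fth1 at 734 ± 119 and 5487 ± 847. The WT ranges of the 2 chains overlapped at S1 and were apart at S3, with Ftl1 above. This order rests on the division by merged exons (3469 bases for Fth1 and 1340 for Ftl1), since in CPM Fth1 was above Ftl1 in all 16 libraries. Tfrc came next at 74.3 ± 25.6 and 342 ± 89.0 CPM per kilobase. The order below it was rebuilt between the stages: at S1 the neighbours Slc11a2, Steap3, Ncoa4, Slc40a1, Aco1 and Flvcr1 each overlapped with the next over the 4 WT libraries, while at S3 Ncoa4 (186 ± 43.7) was next after Tfrc and apart from Slc11a2 (52.8 ± 5.19), Slc40a1 (15.3 ± 1.43) and Steap3 (9.46 ± 1.01). At the bottom at S3 were Ireb2 (2.04 ± 0.555) and Aco1 (1.72 ± 0.233), which overlapped, and Flvcr1 (0.672 ± 0.120). The order at S3 was the same in Het libraries, and in KO libraries only the overlapping pair Aco1 and Ireb2 changed places.

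Among the uptake genes, the receptor rose the most. Tfrc (chr16:32427556-32451612, plus strand) was at 381, 407, 355 and 695 CPM in WT embryos 0, 1, 5 and 8 at S1 and at 2431, 1604, 1704 and 2731 at S3. Every S3 value was above every S1 value, and embryo 8 was the highest at both stages. The fitted log2 change was 2.21 ± 0.29 (SE), 4.62-fold (edgeR adjusted p = 7.04e-05). In Het embryos 3 and 4 Tfrc went from 255 and 186 CPM to 1619 and 1398, and in KO embryos 2 and 9 from 245 and 378 to 1327 and 2062. Those changes were 6.84-fold and 5.38-fold, and Tfrc was higher at S3 in 8 of 8 embryos. CD71, the protein made from Tfrc, was one of the 2 markers of the sort, so the difference between stages is not independent of the gate.

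Slc11a2, the endosomal iron transporter (chr15:100285776-100322953, minus strand), was at 115, 78.5, 106 and 148 CPM in WT embryos 0, 1, 5 and 8 at S1 and at 316, 299.7, 369 and 358 at S3, with no overlap between stages. It rose by a log2 of 1.59 ± 0.22, 3.02-fold (edgeR adjusted p = 8.82e-05), and by 2.90-fold in KO and in Het. Steap3, the endosomal ferrireductase (chr1:120118487-120200435, minus strand), behaved differently from the other 2 uptake genes in that its stages overlapped: it was at 66.6, 54.6, 67.7 and 77.4 CPM in WT at S1 and at 56.7, 48.3, 60.9 and 50.3 at S3. Its log2 difference was -0.29 ± 0.17 in WT (edgeR adjusted p = 0.166), -0.14 ± 0.13 in Het (0.309) and -0.41 ± 0.16 in KO (0.0767), and it was lower at S3 in 8 of 8 embryos. With the embryo as a block the KO value was -0.41 with an adjusted p of 0.00445, and Steap3 was then called lower in KO. Relative to the median gene its WT difference was -0.16.

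The storage genes gave the largest read counts of the 10. Fth1 (chr19:9957911-9962462, plus strand) was at 2879, 2495, 2825 and 1982 CPM in WT embryos 0, 1, 5 and 8 at S1 and at 15465, 21316, 21567 and 17795 at S3. Ftl1 (chr7:45107367-45109308, minus strand) was at 1451, 1697, 1457 and 1071 CPM at S1 and at 9819, 17070.4, 13782 and 11597 at S3. The stages were far apart for both chains, and the lowest S1 value of each was that of embryo 8. Fth1 rose by a log2 of 2.93 ± 0.19, 7.60-fold (edgeR adjusted p = 8.12e-07), and Ftl1 by 3.23 ± 0.21, 9.36-fold (8.84e-07). The folds were 8.18 and 7.98 in Het and 7.04 and 8.11 in KO. Both genes have near-identical copies elsewhere in the genome, and read pairs that fit several places were left out by the authors, so their levels may be understated. The counts assigned to annotated copies were small: at most 0.0347% of the Fth1 count for a copy of Fth1 and 2.04% of the Ftl1 count for a copy of Ftl1, over the 16 libraries. Such pairs were left out of the copies too, so these counts do not show how many were lost.

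Ncoa4, the receptor that carries ferritin to the lysosome (chr14:31881822-31902234, plus strand), showed the largest rise of the 10. It was at 77.1, 72.0, 70.3 and 110.6 CPM in WT embryos 0, 1, 5 and 8 at S1 and at 1892, 1330.1, 1505 and 2246 at S3. The rise was 4.41 ± 0.26 on the log2 scale, 21.3-fold (edgeR adjusted p = 5.28e-07), and lay above 97.8% of all genes tested. In Het embryos it went from 64.9 and 61.7 to 1514 and 1353 CPM, 22.6-fold, and in KO embryos from 74.3 and 81.8 to 1229.9 and 1410.1, 16.8-fold. The KO libraries at S3 lay within the WT range or below it. An annotated copy, Ncoa4-ps, held 1.31% of the Ncoa4 count.

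The 2 exporters moved in opposite directions under TMM scaling. Slc40a1, ferroportin (chr1:45947211-45965683, minus strand), was at 70.3, 47.4, 56.3 and 93.4 CPM in WT embryos 0, 1, 5 and 8 at S1 and at 149, 121, 147 and 136 at S3. It rose by a log2 of 1.05 ± 0.23, 2.07-fold (edgeR adjusted p = 0.00222), the smallest rise among the 6, and by 2.34-fold in Het and 2.05-fold in KO. Under total-count scaling Slc40a1 was not called in WT (0.070, adjusted p = 0.796) or KO (0.23, 0.412). Flvcr1, the haem exporter (chr1:190733367-190758440, minus strand), was at 27.5, 16.7, 25.8 and 40.4 CPM at S1 and at 4.01, 4.02, 2.91 and 2.96 at S3. It fell by 2.99 on the log2 scale (SE 0.30, 7.92-fold lower, edgeR adjusted p = 1.13e-05), and was 11.4-fold lower at S3 in Het and 7.09-fold lower in KO. Neither gene had overlapping stages in WT.

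Macrophages also carry much ferroportin, and their markers moved with the stage. Of 18 macrophage markers 14 were tested, and 11 rose and 0 fell from S1 to S3 in WT, with a median log2 change of 1.90. Under total counts 2 rose and 2 fell, with a median of 0.92. Their summed level was 31.1 to 60.3 CPM in WT at S1 and 52.4 to 115 at S3. In KO embryos, where Slc40a1 also rose, 2 of 13 tested macrophage markers rose (Fcna and Spic) and 2 fell (Lyz2 and Csf1r), with a median log2 change of 1.504. The sum went from 71.9 and 72.8 CPM to 25.3 and 44.1. Within it Lyz2, which neutrophils also express, was at 46.7 to 53.6 CPM at S1 and 3.33 to 5.35 at S3 in KO. The part of macrophage RNA in the Slc40a1, Fth1 and Ftl1 levels was not tested. The gate on Ter119 would be meant to leave such cells out at S3, and the antibodies listed for foetal liver include the myeloid markers CD11b and Gr1, whose use in this sort is not given in the sources used here. Hepatoblast markers, from the liver cells around the erythroblasts, rose for 5 of 10 genes in WT under TMM and for 0 under total counts, and all 8 neutrophil markers fell. In Het embryos 10 of 13 tested macrophage markers rose under each scaling, while 2 fell under TMM and 3 under total counts. Their sum went from 37.8 to 75.3 CPM in embryo 3 and from 55.3 to 54.2 in embryo 4. Of 10 hepatoblast markers in Het, 9 rose under TMM and 8 under total counts, and 1 fell under each. In KO embryos 0 of 10 hepatoblast markers rose under either scaling, and under total counts 0 macrophage markers rose and 2 fell, with a median of 0.65. Of 5 tested megakaryocyte markers 2 rose and 0 fell in WT under TMM, with a median of 0.48. Under total counts 1 rose and 1 fell, with a median of -0.49. All 4 erythroid progenitor markers fell.

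The iron regulatory proteins changed unevenly. Aco1, which encodes IRP1 (chr4:40142998-40199010, plus strand), was at 28.7, 18.97, 26.2 and 41.1 CPM in WT embryos 0, 1, 5 and 8 at S1 and at 7.14, 7.99, 9.12 and 6.76 at S3. It fell by 1.88 on the log2 scale (SE 0.26, 3.69-fold lower, edgeR adjusted p = 1.09e-04), and was 4.29-fold lower in Het and 3.39-fold lower in KO. Ireb2, which encodes IRP2 (chr9:54770970-54820011, plus strand), was at 18.9, 18.6, 14.5 and 25.1 CPM at S1 and at 24.7, 14.3, 15.4 and 23.0 at S3. The stages overlapped in WT, with a log2 difference of 0.018 ± 0.25 (edgeR adjusted p = 0.955) and values were higher at S3 in 5 of 8 embryos over the 3 genotypes. Under total-count scaling the WT value was -0.96 and was called lower (adjusted p = 0.00764). Het embryos gave 13.01 and 9.22 CPM at S1 and 14.7 and 16.7 at S3, a rise of 0.49 ± 0.19 (edgeR adjusted p = 0.0163) that was not called when all 16 libraries shared 1 fit (0.50, adjusted p = 0.265) and that turned to -0.36 (0.125) under total counts.

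**Figure D2:**
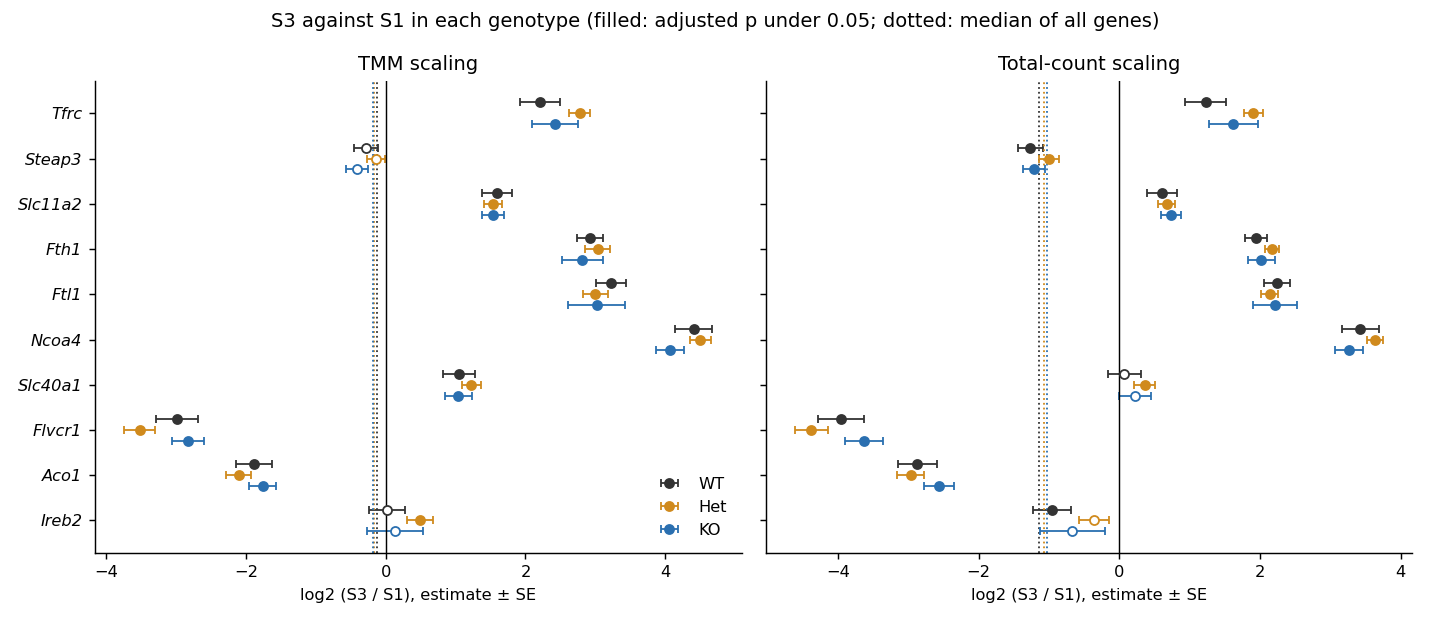
Log2 change from S1 to S3 for each gene (estimate ± SE) in WT, Het and KO embryos, under TMM scaling on the left and total-count scaling on the right, with filled points for an adjusted p under 0.05 and dotted lines at the median of all genes. Under total-count scaling that median lies at -1.14 in WT and every gene moves down with it, so that Slc40a1 is no longer called in WT (0.070) and Steap3 is called lower (-1.27).

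The sizes above depend on what the libraries are scaled to. The median log2 change of all genes in WT was -0.13 under TMM and -1.14 under total-count scaling, and that of the 10 genes was 1.32 and 0.34. In KO it moved from -0.19 to -1.03 and in Het from -0.17 to -1.07. Calls split into 3971 higher and 4807 lower in WT under TMM and into 1806 and 8703 under total counts, into 3038 and 4070 against 1541 and 7222 in KO, and into 4389 and 5578 against 2243 and 8475 in Het. Under total counts 5 of the 10 genes were called higher and 4 lower in WT, 5 and 3 in KO and 6 and 3 in Het. Tfrc, Slc11a2, Fth1, Ftl1 and Ncoa4 stayed higher and Flvcr1 and Aco1 lower in all 3 genotypes. Their WT log2 changes under total counts were 1.23, 0.61, 1.95, 2.25, 3.43, -3.96 and -2.87 in that order. Since a scaling moves all genes of a library alike, a change relative to the median gene is nearly the same under both by construction. On that scale Ncoa4 stood at 4.54, Ftl1 at 3.35, Slc40a1 at 1.18 and Flvcr1 at -2.86 in WT.

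Ratios of 2 genes inside a library do not depend on the scaling. Per length, the Aco1 to Ireb2 ratio was 3.21, 2.15, 3.81 and 3.46 in WT embryos 0, 1, 5 and 8 at S1 and 0.610, 1.18, 1.25 and 0.619 at S3. In Het embryos it went from 5.37 and 5.94 to 1.11 and 0.770, and in KO embryos from 5.00 and 3.12 to 1.65 and 0.727. Every S1 library was above every S3 library. Where the ratio lies around 1 depends on the lengths used: at S3 it lay on both sides of 1 per length, while in CPM Aco1 was below Ireb2 in all 8 libraries. The ratio of Tfrc to Slc40a1, the main way in against the main way out, ran from 7.89 to 12.5 in WT at S1 and from 16.8 to 29.3 at S3, from 6.22 and 6.30 to 18.8 and 17.6 in Het, and from 8.06 and 9.26 to 18.6 and 27.0 in KO. It too was higher in every S3 library than in any S1 library. Fth1 to Ftl1 per length was below 1 in all 16 libraries (and above 1 in CPM), at 0.568 to 0.767 in WT at S1 and 0.482 to 0.608 at S3. The stages overlapped, but within an embryo the ratio was lower at S3 in 7 of 8 embryos, the exception being Het embryo 4, with log2 differences of -0.33 to 0.13.

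**Figure D3:**
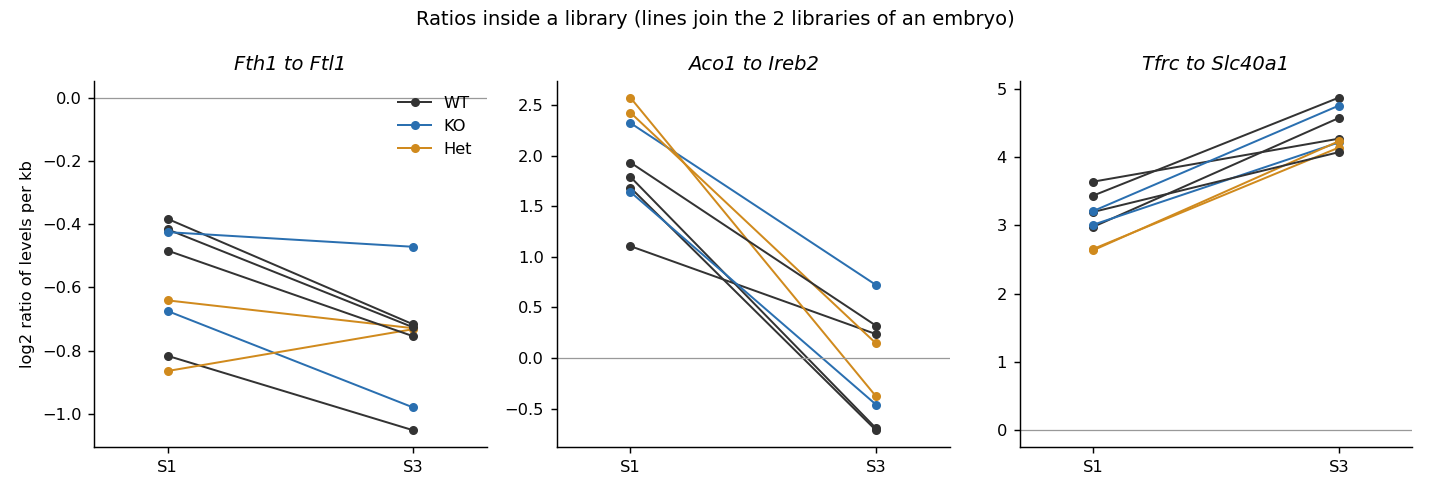
Log2 ratio of levels per kilobase for Fth1 to Ftl1, Aco1 to Ireb2 and Tfrc to Slc40a1 at S1 and S3, with a line joining the 2 libraries of each of 8 embryos (WT black, Het orange, KO blue). The Aco1 to Ireb2 lines fall from between 1.11 and 2.57 to between -0.71 and 0.72, and the Tfrc to Slc40a1 lines rise from between 2.64 and 3.64 to between 4.07 and 4.87.

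Other genes of the same pathways were read from lists of 82 further genes, of which 67 were tested between stages. In WT 29 of them rose and 14 fell under TMM, against 29.4% and 35.6% of all genes. Under total counts 19 rose and 33 fell in WT, against 1806 and 8703 of all 13537 genes. In KO the TMM counts were 28 and 14 (22.6% and 30.3% of all genes) and in Het 35 and 18 (33.5% and 42.6%). Under total counts they were 19 and 31 in KO, against 1541 and 7222 of 13340 genes. In Het they were 24 and 37, against 2243 and 8475 of 13026. The list of 10 mRNAs known to carry an iron-responsive element, which includes 5 of the genes above, had 8 of 9 tested members higher and 0 lower in each genotype under TMM, and 6 higher and 1 lower in WT and KO and 7 and 2 in Het under total counts. Its largest rise was in Alas2, the first enzyme of haem synthesis in erythroid cells, at 6.72 ± 0.78 on the log2 scale in WT (edgeR adjusted p = 3.01e-05). All 11 tested globin genes rose in each genotype under both scalings, with Hbb-bh1 at 7.09 and Hbq1a at 7.05 in WT.

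The lists below stand beside the WT shares of all genes, 29.4% higher and 35.6% lower under TMM. Under total counts these were 1806 and 8703 of 13537 genes. Of 8 genes listed under mitochondrial iron import 3 rose and 2 fell in WT under TMM, and 3 rose and 4 fell under total counts. The rises were led by Slc25a37 (mitoferrin-1, the mitochondrial iron importer, 5.62 ± 0.63 on the log2 scale) and Abcb10 (3.58 ± 0.54), which binds mitoferrin-1. Abcb8 and Sfxn1, which are on the same list but are not established iron importers, fell by 1.81 and 1.11. In the transferrin cycle list 4 of 10 tested genes rose and 1 fell under TMM, and 2 rose and 3 fell under total counts: Picalm, a clathrin adaptor of receptor uptake, rose by 2.56 ± 0.22 and Snx3, which returns the receptor to the surface, by 1.496 ± 0.15, while Slc39a14, a transporter of iron not bound to transferrin, fell by 3.19. Of 25 genes of iron-sulphur cluster assembly 10 rose and 6 fell under TMM, against 29.4% and 35.6% of all genes. Isca1 and Hscb were both at 3.08, Fdx1 at -3.29 and Hspa9 at -2.39. Under total counts 6 of those 25 rose and 15 fell.

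In the haem transport list 6 of 11 tested genes rose and 3 fell in WT, Flvcr1 among the latter, and 5 rose and 4 fell under total counts. The same WT shares of all genes apply to the lists of this paragraph. Abcg2, a porphyrin exporter, rose by 3.70 ± 0.24 and Blvrb, biliverdin reductase B, by 3.22 ± 0.20, while Slc46a1, a haem and folate importer, fell by 1.90. Of 10 tested genes of cytosolic iron handling 4 rose, Fth1 and Ftl1 among them, and 3 fell, led downwards by Fbxl5, the ubiquitin ligase subunit that removes IRP2 when iron is ample (-1.05 ± 0.18), and by Glrx3 (-1.04 ± 0.20). Under total counts 2 of those 10 rose and 6 fell in WT. Of 4 tested genes of the iron hormone axis 1 was called in WT under TMM, Erfe, the erythroblast hormone that lowers hepcidin, at 2.45 ± 0.53, and under total counts 1 rose and 2 fell. The genes named from these lists kept their direction and their call in WT under total-count scaling.

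Loss of Nprl3 was compared with WT within each stage. None of the 10 iron genes was called in KO libraries at S3 or at S1 by edgeR, by DESeq2 or under any of the other settings, and none had an unadjusted p under 0.05 in the edgeR fits. Over all genes 0.508% were called at S3 (60 genes) and 0.00712% at S1, where the 1 gene called was Nprl3. The 60 calls became 259 in DESeq2, 522 and 730 with sex in edgeR and DESeq2, and 11 without WT embryo 8, and the 1 call became 171 in DESeq2 with sex. The 10 log2 differences ran from -0.36 to 0.24 at S3 and from -0.56 to 0.048 at S1. These values do not show that the genotypes are alike: the 95% interval for KO against WT at S3 ran from -0.47 to 0.34 for Fth1, from -0.92 to 0.36 for Tfrc and from -0.89 to 0.17 for Ncoa4. Over the other settings the Tfrc difference at S3 ran from -0.62 to 0.11, with adjusted p from 0.0733 to 0.999. Of the 65 to 67 further iron genes tested, 0 were called at either stage.

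**Figure D4:**
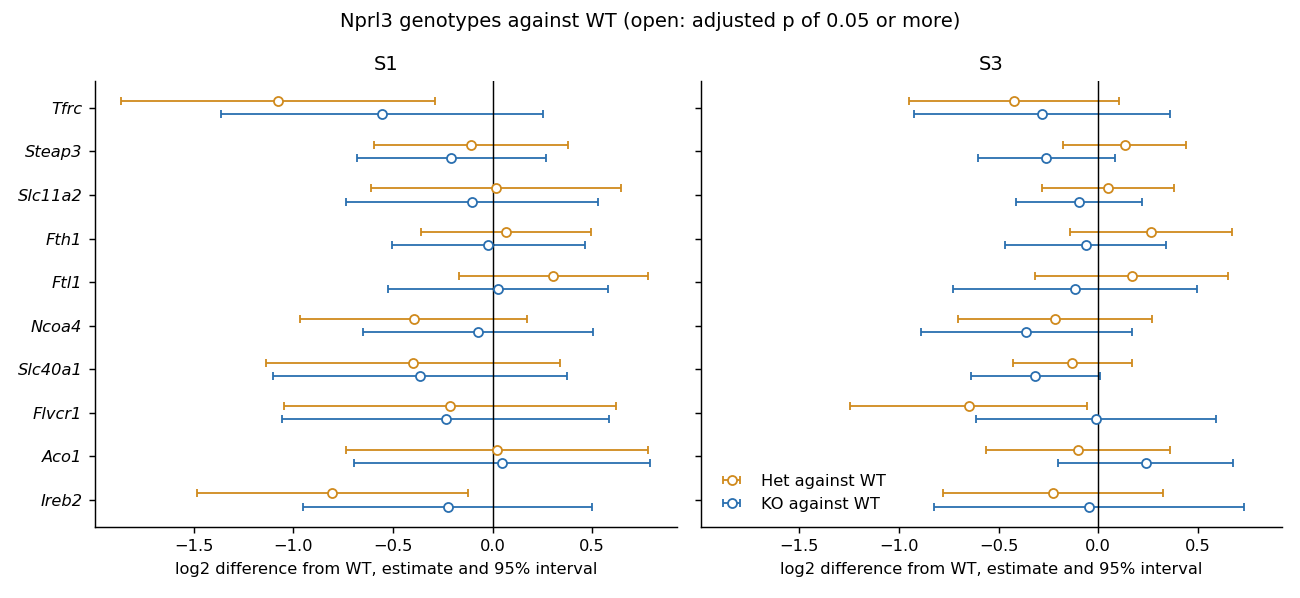
Log2 difference of Het and of KO libraries from WT for each gene at S1 and S3 (estimate and 95% interval), with open points since no adjusted p was under 0.05. At S3 the KO interval of Slc40a1 runs from -0.64 to 0.0075 around an estimate of -0.32, and at S1 the Het interval of Tfrc runs from -1.86 to -0.29 around -1.08.

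Slc40a1 and Steap3 were the genes for which both KO libraries at S3 lay below all 4 WT libraries, a separation seen in either direction in 18.7% of all genes at S3. Slc40a1 was at 103.9 and 111 CPM in KO embryos 2 and 9 and at 121 to 149 in WT, a log2 difference of -0.32 ± 0.14 (edgeR adjusted p = 0.588). Over the other settings the adjusted p ran from 0.0784, in DESeq2 with sex in the model, to 0.996. Steap3 was at 46.0 and 41.4 CPM in KO and at 48.3 to 60.9 in WT, a log2 difference of -0.26 ± 0.15 (edgeR adjusted p = 0.726). Macrophage markers were lower in the same KO libraries: the sum was 25.3 and 44.1 CPM against 52.4 to 115 in WT, the median log2 difference over 14 tested was -1.38, and Marco (-2.59) and Fcna (-1.90) were called. Hepatoblast markers summed to 74.3 and 202 CPM against 177 to 787, with a median of -1.48 over 10 tested and 0 called. The 10 erythroblast markers were also lower, at 152787 and 152012 CPM in KO against 168923 to 198796 in WT, with a median log2 difference of -0.24 and 0 of 10 called. The part of these lists in the Slc40a1 and Steap3 differences was not tested. At S1 no iron gene separated KO from WT, against 9.92% of all genes.

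The change between stages was then compared between KO and WT directly. The interaction was called for 0 of the 10 genes and for 0.00742% of all genes, which was Nprl3 alone. The differences between the KO and WT stage changes ran from -0.32 for Ncoa4 (95% interval -1.09 to 0.44) to 0.23 for Tfrc (-0.79 to 1.26), and 0 of the 10 had an unadjusted p under 0.05.

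Het libraries gave 0 calls among the 10 genes at either stage, and 0% of all genes were called at S3 and 0% at S1. By DESeq2 1 gene was called at S3 and 30 at S1, and by edgeR 368 of 11746 and 580 of 13818 had an unadjusted p under 0.05, among them 1 of the 10 iron genes at S3 (Flvcr1) and 2 at S1 (Tfrc and Ireb2). Tfrc, Ireb2 and Ncoa4 were lower in both Het libraries at S1 than in all 4 WT libraries, a separation seen in 18% of all genes. Tfrc stood at 255 and 186 CPM in Het against 355 to 695 in WT, a log2 difference of -1.08 ± 0.34 (edgeR adjusted p = 0.907), and Ireb2 at 13.01 and 9.22 against 14.5 to 25.1, -0.80 ± 0.29 (0.907). Without WT embryos 0 and 8 the Tfrc difference was -0.76 and that of Ireb2 -0.54, in a fit of 2 male Het against 2 female WT embryos in which genotype and sex cannot be told apart. Over the settings tried the adjusted p for Tfrc ran from 0.318 to 1.00. Markers of the later stage were high in WT embryos 0 and 8 at S1, where the 10 erythroblast markers summed to 9416 and 8303 CPM. They summed to 2372 and 3366 in WT embryos 1 and 5, to 1998 and 2299 in Het, and to 1729 and 3215 in KO. Hepatoblast sums were 307 and 268 CPM in WT embryos 0 and 8, and 49.7 and 63.7 in embryos 1 and 5. Neutrophil sums were 202 and 115 CPM in WT embryos 0 and 8, and 1373 and 1149 in embryos 1 and 5. Against all 4 WT libraries the median Het difference was -2.24 over the erythroblast markers and -2.37 over 10 hepatoblast markers. It was -1.26 over 13 macrophage markers and 0.97 over 8 neutrophil markers, with 0 called in each list. The part of these lists in the Tfrc difference was not tested. At S3 only Flvcr1 separated Het from WT, against 14.8% of all genes, at 2.22 and 2.00 CPM against 2.91 to 4.02 (-0.65 ± 0.26, edgeR adjusted p = 0.918).

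The spread between libraries was set beside a balance between long and short transcripts. For each library the median deviation from the stage mean was taken over 3857 genes of at least 5000 bases and over 802 genes of at most 1500 bases, and the second was subtracted from the first. At S3 the difference was 0.39, 0.36 and 0.29 on the log2 scale in WT embryos 0 and 8 and KO embryo 9, and -0.13 to -0.26 in the other 5 libraries. The same 3 libraries held the 3 highest S3 levels of Tfrc and of Ireb2, whose merged exons span 6185 and 9479 bases, and the 3 lowest levels of Ftl1 and Fth1, with 1340 and 3469 bases. At S1 embryo 8 of WT stood at 0.97, against -0.37 to 0.18 in the other 7 libraries, and held the lowest levels of Fth1 and Ftl1 and the highest of each of the other 8 iron genes. Not all long genes of the 10 followed at S3: KO embryo 9 held the lowest Steap3 level (41.4 CPM, 5715 bases) and the second lowest Slc40a1 level (111 CPM, 9000 bases), and its Ncoa4 level (1410.1 CPM, 9365 bases) was below that of WT embryo 5. Slc11a2 (6354 bases) was highest in WT embryo 5. Both Het libraries were below 0 at both stages. The part of transcript length in the Het and KO differences was not tested. The stage changes of Fth1 and Ftl1 within an embryo were 2.43 to 3.21 and 2.72 to 3.44 in all 8 embryos, a spread smaller than the changes.

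**Figure D5:**
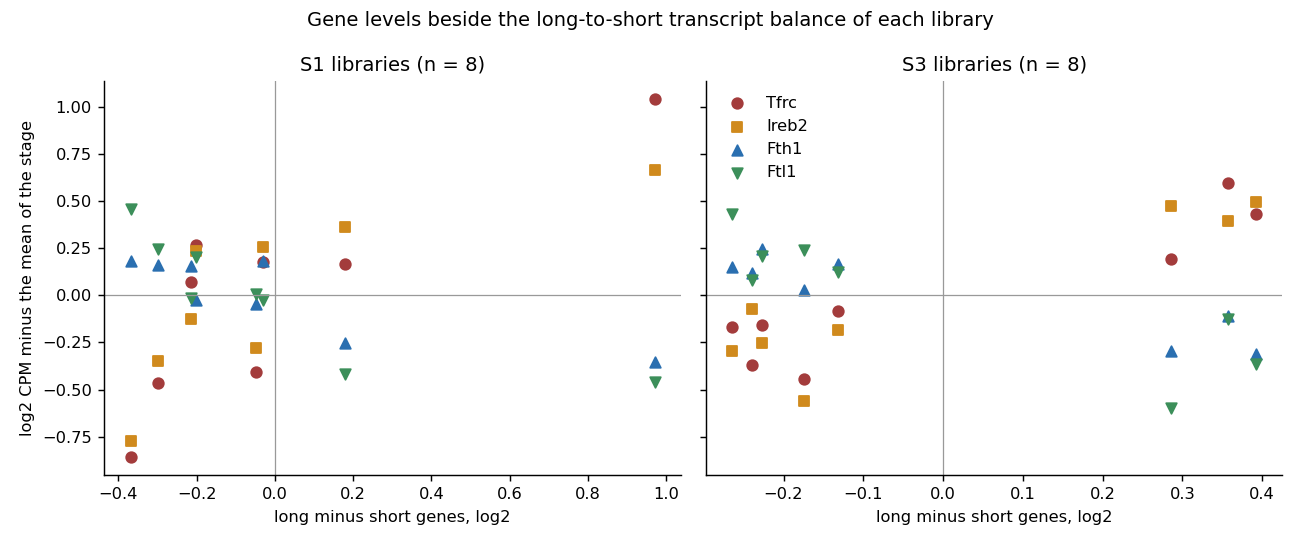
Deviation of log2 CPM from the mean of the stage for Tfrc, Ireb2, Fth1 and Ftl1 (y axis) against the long-minus-short gene balance of each library on the log2 scale (x axis), for 8 libraries at S1 and 8 at S3. The libraries to the right, up to 0.97 at S1 and 0.39 at S3, have high Tfrc and Ireb2 and low Fth1 and Ftl1.

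The genes whose levels ran most like those of 3 of the iron genes over the 16 libraries were taken from 9046 genes with a mean normalised count above 100, by Pearson's r of log2 CPM. For Fth1 they were Blvrb, Anp32b and Cdkn3, each with r = 0.998. For Tfrc they were Adam10 (0.994), Med12 (0.994) and Znfx1 (0.993), and for Slc40a1 Plekhg5 (0.983), Lats2 (0.982) and Abcg4 (0.981). The libraries fall into S1 and S3, so these values describe mainly the size of the step between stages.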

How the data were processed

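RNA was extracted from sorted S1 and S3 cells of 8 foetal livers, amplified with a SMARTer protocol and sequenced as poly(A) libraries. The authors mapped read pairs to mm39 with STAR 2.7.9 and deposited raw counts per gene made with featureCounts 1.6.4 and the Ensembl annotation, without strand and without multi-mapping read pairs. Reads from a gene and its antisense partner were therefore not told apart. The largest count of a gene overlapping one of the 10 was 0.406% of the member's count (A230020J21Rik, over Flvcr1). The table has 4 library columns that match no sample here and were not used. Symbols were taken from GENCODE M39 for 54749 of 55416 genes, and coordinates and sequences from GRCm39, the same build.

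Counts were scaled by TMM and tested with edgeR 4.0.16 (quasi-likelihood, R 4.3.3) on the libraries of each comparison, for genes with a mean normalised count above 10. P-values were Benjamini-Hochberg adjusted over all genes tested and called under 0.05. DESeq2 1.42.0, other scalings, sex, all 16 libraries in 1 fit, the embryo as a block and each embryo left out were alternatives. Libraries of an embryo are paired by animal. Their deviations from group means correlated at 0.0299 to 0.448 in WT, 0.0847 in Het and 0.585 in KO over 13402 genes. The number of embryos limits precision.

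The members and lists were chosen with earlier results of these data known. Named were all 10 members and, in each list, the 2 largest rises and the 2 largest falls among genes called between stages in WT. Marco, Fcna, Spic, Lyz2 and Csf1r were named after their values were seen. For Tfrc, Fth1 and Slc40a1 the 3 genes with the highest Pearson's r were named. Levels per length used the merged exons of a gene, which understates genes with long rare exons.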

Additional observations from a re-analysis of the deposited data

Results flagged for a closer look

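Over the 44 groups of 4 WT libraries examined, 5 held 1 library far from the other 3, and chance gives about 1 group in 20. Embryo 8 at S1 was the library set apart in 4 of them: by its high Tfrc (695 CPM against 355 to 407, a gap of 0.848 of the range), its high Ncoa4 (110.6 CPM against 70.3 to 77.1, 0.832), its low macrophage marker sum (31.1 CPM against 55.7 to 60.3, 0.842) and its long-minus-short gene balance (0.97 against -0.21 to -0.031, 0.845). In the fifth, the Fth1 to Ftl1 ratio at S3 was 0.482 in embryo 1 and 0.593 to 0.608 in the others, a gap of 0.888 of the log2 range. The KO difference of Nprl3 itself differed between stages, with an interaction of 5.11 ± 0.39 on the log2 scale (edgeR adjusted p = 1.73e-04), from 0.319 and 0.676 CPM at S1 to 107 and 111 at S3. These counts do not separate promoter-derived mRNA from the enhancer-derived transcripts that the paper describes.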

How the results depend on the processing

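The counts of members called stayed within 8 to 9 in each stage comparison and at 0 in each genotype comparison and in the interaction, over 8 to 16 other settings each. The scaling by total counts, the fit without WT embryos 0 and 8 and the newer form of the edgeR test were added after the data were seen. Total counts turned Ireb2 to -0.96 in WT (called lower, adjusted p = 0.00764) and to -0.36 in Het (0.125), ended the Slc40a1 calls in WT (0.070) and KO (0.23), and added Steap3 as lower in WT (-1.27), KO (-1.21) and Het (-1.003). Steap3 was also called lower in WT with all 16 libraries in 1 fit (-0.30, adjusted p = 0.0459). With the replicate block 8 members were called in WT, 9 in KO and 9 in Het, and 0 in the interaction. The block added Steap3 in KO (-0.41) and changed no other call. Leaving out 1 embryo gave 8 calls in WT throughout. No such value exists for the stage comparisons in KO and Het, which could not be fitted on the 2 libraries left. Of 1040 values for single members, 949 kept direction and call, 81 uncalled values changed sign, 5 gained a call, 3 lost one and 2 reversed. Over all genes, KO against WT at S3 gave 60 calls, 356 without the filter, 259 in DESeq2, 99 with all 16 libraries, 522 and 730 with sex in edgeR and DESeq2, 17 without WT embryos 0 and 8, and 11 to 44 without 1 embryo (11, 12 and 30 without WT embryos 8, 0 and 1, and 34 without KO embryo 2). At S1 the 1 call became 7 without the filter, 45 in DESeq2, 21 and 171 with sex, and 0 to 2 without 1 embryo. In Het the 0 calls became 57 at S3 without the filter, and 1 at S3 and 30 at S1 in DESeq2. They became 6 at S3 and 5 at S1 without WT embryos 0 and 8, and 3 at S3 without WT embryo 5. The 1 call of the interaction became 12 in DESeq2.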
